A study of Homo sapiens with 6 samples.

Results

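The MYC and MAX network was taken as 10 named genes, MYC, MAX, MNT, MXD1, MXD3, MXD4, MXI1, MLX, MLXIP and MGA, and all 10 were found among the 15832 gene symbols of the expression table. The table comes from AsPC-1, a human pancreatic cancer cell line, harvested 48 h after it had received either a control siRNA (siControl, 3 libraries) or siRNA against VCPIP1 (siVCPIP1, 3 libraries). VCPIP1 encodes a deubiquitinating enzyme, and the title of the series ties it to Hippo/YAP signalling in pancreatic cancer. All 6 libraries are of this single line, no untransfected cells are among them, and the labels do not say whether siVCPIP1 is a single siRNA or a pool. Nor do they state that libraries of one group came from separate cultures, so each p-value reflects library-to-library spread alone, and that spread may be technical. Values are in TPM, a share of each library's transcripts scaled for transcript length, and levels of different genes are compared on that scale.

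Proteins of the network bind DNA as dimers through a basic helix-loop-helix leucine zipper. MAX is the shared partner: MYC with MAX activates genes, while MXD1, MXD3, MXD4, MXI1 (also called MXD2), MNT and MGA with MAX repress them at the same sites. MLX is a second hub, which pairs with the glucose sensor MLXIP (MondoA) and with MXD1, MXD4 and MNT. MYC drives ribosome production, nucleotide synthesis and cell division, and in pancreatic cancer it acts downstream of RAS signalling. The dimers bind the E-box CACGTG, which reads the same on both strands.

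The promoter table from RefSeq (GRCh38.p14) gives 300 bases per start site, 250 before the start and 50 after it. It held 14 promoters for 9 of the members, and no entry for MYC. The E-box was found in 3 of these 14 promoters (21.4%), those of MXD4, MNT and MLX, against 8.74% of the 18100 promoters of all genes in the expression table and 7.26% of all 35116 promoters of the table. The 3 stretches are shown because they are the places in the members' own promoters where the letters bound by the network occur, with the E-box in capitals, 5′ to 3′ on the gene's strand. They lie at chr4:2262315-2262359 (MXD4, minus strand, E-box starting 238 bases before the start site), chr17:2401221-2401280 (MNT, minus strand, 193 bases before) and chr17:42567023-42567082 (MLX, plus strand, 50 bases before).
MXD4: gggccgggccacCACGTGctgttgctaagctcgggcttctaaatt
MNT: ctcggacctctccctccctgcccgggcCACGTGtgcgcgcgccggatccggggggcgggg
MLX: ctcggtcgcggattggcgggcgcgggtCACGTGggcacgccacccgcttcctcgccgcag
A match is a description of the letters and does not show that a factor binds there. No E-box was found in the windows of MAX, MXD1, MXD3, MXI1, MLXIP or MGA.

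The libraries differed far beyond the network, and these facts bear on every value. The targeted gene, VCPIP1, averaged 2.74 ± 0.44 TPM in siControl and 0.167 ± 0.090 TPM in siVCPIP1 (SD, n = 3 each), a log2 fold change of -1.68, or -3.45 with 0.1 TPM added in place of 1. It passed the filter of a mean of 1 TPM over the 6 libraries only through siControl. With GC content and length corrected for, VCPIP1 lay at 0.26, not called, with 1 TPM added, and at -0.56, called lower, with 0.1 TPM added. The median TPM over all genes was 6.18 to 7.44 in siControl and 1.24 to 2.26 in siVCPIP1. Transcripts under 45% GC held 13.5% to 15.8% of TPM in siControl and 3.78% to 6.0% in siVCPIP1, and the part of GC content in the differences between the groups was not tested. Replicate 3 of siVCPIP1 stood apart from the other two of its group, with the median of 2.26 TPM against 1.24 and 1.26, and it had the highest siVCPIP1 value in all 7 members called lower. Of 10966 genes tested (limma on log2(TPM + 1), adjusted p under 0.05), 81.0% were called, 66.0% lower and 15.0% higher in siVCPIP1, with a median log2 fold change of -1.12. Of 8 epithelial markers 4 were lower and 4 higher. KRT8 averaged 5495 TPM in siControl and 6852 TPM in siVCPIP1, while CDH1 averaged 28.9 and 0.677 TPM, EPCAM 171.9 and 5.96 TPM, and KRT7 2.60 and 6.67 TPM. Summed markers of leukocytes reached 146.5 to 151.6 TPM in siControl and 122.6 to 160.2 TPM in siVCPIP1, nearly all of it CD68. Fibroblast markers summed to 45.3 to 68.98 TPM in siControl, nearly all of it LUM, and to 1.5 to 4.51 TPM in siVCPIP1, of which LUM made up 1.08 to 3.71 TPM, erythroid markers to 89.5 to 109.1 and 244.2 to 409.2 TPM, nearly all of it HBA1 and HBA2, and endothelial markers to at most 1.30 TPM in any library. Their part in the members' values was not tested. In bulk RNA, fewer cells with a transcript and less of it per cell cannot be told apart.

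Of the 10 members, 7 were lower in siVCPIP1, MXD4 was higher, and MXD3 and MLXIP were not called. Over all tested genes 81.0% were called, 66.0% lower and 15.0% higher, so the members' count lay close to the background. The members' median log2 fold change of -1.17 also lay beside the -1.12 of all genes. The groups did not overlap in 9 of the 10 members, where 86.0% of all tested genes did not overlap. What set the members apart from each other was the size of the change, from -3.60 for MYC to 0.75 for MXD4 on the log2(TPM + 1) scale. All 10 passed the filter of a mean of 1 TPM over the 6 libraries, but MGA, with a mean of 1.04 TPM, passed only through its siControl values.

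**Figure D1:**
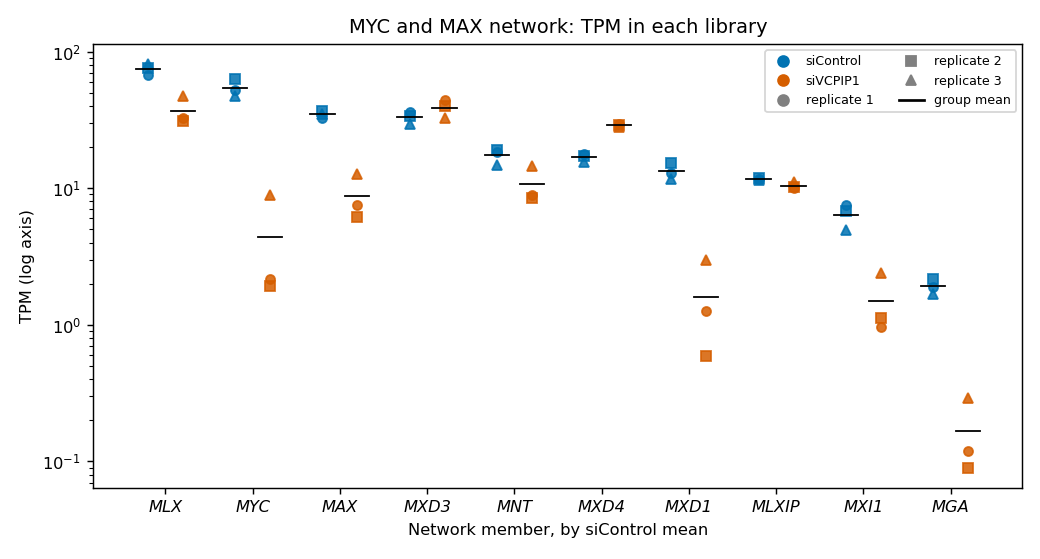
TPM of each member in each library on a log axis, with siControl in blue, siVCPIP1 in orange, a symbol for each replicate number and a black bar for the group mean. MYC goes from second to seventh place among the members, MXD4 lies higher in all 3 siVCPIP1 libraries, and replicate 3 of siVCPIP1 (triangles) lies nearest to siControl in every member called lower.

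MYC, the activator of the network, reached 52, 63.2 and 47.52 TPM in siControl, against 2.18, 1.93 and 8.98 TPM in siVCPIP1. Every siVCPIP1 library lay far below every siControl library, and replicate 3 of siVCPIP1 held 4.37 times the mean of replicates 1 and 2. The mean fell from 54.2 ± 8.08 to 4.36 ± 4.0 TPM (SD, n = 3), so that 8.04% of the siControl level was left. The log2 fold change was -3.60 (SE 0.43, 95% interval -4.57 to -2.62, limma, adjusted p = 6.8e-05), which is 2.48 further down than the median gene. The two-sided exact permutation p was 0.1, the smallest that 3 libraries against 3 allow. MYC was called lower in all 16 fits that were run, with values from -4.17 to -2.48. MYC spans bases 127735434 to 127741434 of chromosome 8 (plus strand; GRCh38, GENCODE 29), and its transcript of 2366 nt has 3 exons and 53.9% GC.

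MYC lay lower than most genes of similar GC content. The tested genes were split by GC content into 10 bins of equal size. The bin of MYC had a median change of -0.44 (log2), and 5 of the 1090 other genes there were as low as MYC. The MYC change was -2.85 once GC content and length were corrected for. After median-of-ratios scaling and quantile normalization, which align the centres of the libraries, it was -2.53 and -2.48. These scalings moved the median of all genes from -1.12 to -0.14 and 0.04.

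Of the paralogs of MYC, MYCN was the only other one above the filter. It was measured at 6.97, 8.46 and 6.72 TPM in siControl and at 0.12, 0 and 0.41 TPM in siVCPIP1, where replicate 2 is listed at 0, which gives a log2 fold change of -2.84 (limma, SE 0.18, adjusted p = 2.0e-05). Its mean of 0.177 TPM in siVCPIP1 lay under 1 TPM, so that MYCN passed the filter only through siControl. With 0.1 TPM added the change was -5.06. MYCL stayed under the filter, at 0.38 to 0.64 TPM in siControl and 0.22 to 0.48 TPM in siVCPIP1.

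MAX, the partner that MYC and its antagonists share, was measured at 32.8, 36.8 and 34.7 TPM in siControl and at 7.56, 6.18 and 12.6 TPM in siVCPIP1. The groups did not overlap, and the mean fell from 34.8 ± 2.0 to 8.79 ± 3.40 TPM (SD, n = 3). The log2 fold change was -1.92 (SE 0.24, limma, adjusted p = 9.8e-05). MAX was also lower after median-of-ratios scaling (-0.77), quantile normalization (-0.77) and GC and length correction (-0.94). MAX lies on chromosome 14 from 65006174 to 65102695 (minus strand), where CHURC1-FNTB runs on the opposite strand over 55630 bases, and without a stated strand setting reads of the shared stretch cannot be assigned. CHURC1-FNTB itself had a log2 fold change of -0.65.

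The balance of MYC to MAX was lower in siVCPIP1, without overlap between the groups. The log2 ratio of MYC to MAX was 0.66, 0.78 and 0.45 in siControl and -1.79, -1.68 and -0.49 in siVCPIP1. MYC thus exceeded MAX in each siControl library and lay below it in each siVCPIP1 library. The difference between the group means was -1.95 (two-sided exact permutation p = 0.1, the smallest this design allows). After correction for GC content and length it was -1.90, but on log2(TPM + 1) values, which is not the scale of the -1.95. On log2(TPM + 1), MYC and MAX changed by -3.60 and -1.92 before this correction and by -2.85 and -0.94 after it.

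MXD1, a repressor that rises as many cell types differentiate, had the largest fall among the antagonists of MYC on the log2(TPM + 1) scale, while by the ratio of group means MGA fell further (11.5-fold against 8.25-fold). It was measured at 12.85, 15.3 and 11.7 TPM in siControl and at 1.27, 0.59 and 2.97 TPM in siVCPIP1. All siVCPIP1 values lay under the lowest siControl value, with a log2 fold change of -2.55 (limma, SE 0.32, adjusted p = 8.9e-05). The transcript has a GC content of 42.7%, and the median of its GC bin was -2.05. The change was -1.64 and -0.99 after median-of-ratios scaling and quantile normalization and -0.56 after GC and length correction, where the call was lost with a pseudocount of 0.1 (-0.55, limma, adjusted p = 0.13, with a range of 2.4e-12 to 0.13 over its 16 fits). MXD1 lies on chromosome 2 from 69897688 to 69942945 and shares 7888 bases with SNRNP27 on the same strand.

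MXI1, another repressor of this family, was measured at 7.48, 6.81 and 4.94 TPM in siControl and at 0.96, 1.12 and 2.39 TPM in siVCPIP1. The groups did not overlap, and the log2 fold change was -1.60 (SE 0.25, limma, adjusted p = 0.00034). Its direction depended on the processing, with -0.72 after median-of-ratios scaling, 0.00021 after quantile normalization and 0.43 after GC and length correction. MXI1 has 45.3% GC, and its change was close to the median of its GC bin (-1.79). It spans bases 110207605 to 110287365 of chromosome 10.

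MXD4 was the only member called higher. It was measured at 17.8, 17.2 and 15.5 TPM in siControl and at 29.6, 29.1 and 28.2 TPM in siVCPIP1, so that every siVCPIP1 library stood above every siControl library. Replicate 3 of siVCPIP1, which had the highest siVCPIP1 value in every member called lower, lay beside replicates 1 and 2 here. The mean rose from 16.8 ± 1.17 to 28.96 ± 0.71 TPM (SD, n = 3), 1.72 times, with a log2 fold change of 0.75 (SE 0.15, 95% interval 0.41 to 1.09, limma, adjusted p = 0.0015). MXD4 was called higher in all 16 fits, from 0.70 to 1.92, and the value after GC and length correction was 0.77. MXD4 spans bases 2247432 to 2262294 of chromosome 4, with 6 exons and 64.0% GC in its transcript. In its GC bin the median change was 0.48, 55.8% of genes were called higher, and 329 of the 1091 other genes rose as much or more.

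MXD3, a repressor found in proliferating cells, was the one member whose groups overlapped. It was measured at 35.8, 33.7 and 29.3 TPM in siControl and at 44.1, 40.2 and 32.4 TPM in siVCPIP1. The log2 change of 0.23 (SE 0.17, 95% interval -0.16 to 0.61, limma, adjusted p = 0.24) was not called. It reached 0.35 without replicate 3 of siVCPIP1, a call, and 1.42 and 1.03 after median-of-ratios scaling and quantile normalization, but -0.43 after GC and length correction. MXD3 lies on chromosome 5 from 177301461 to 177312757 and has 67.2% GC. It shares 3186 bases with PRELID1 on the opposite strand, which was measured at 429.4 to 463.8 TPM in siControl and 575.9 to 688.5 TPM in siVCPIP1, and 2284 bases with RAB24 on the same strand.

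MNT, a repressor made in most cells whether they divide or not, was measured at 18.55, 19.05 and 14.79 TPM in siControl and at 8.91, 8.51 and 14.6 TPM in siVCPIP1. The third replicates of both groups nearly met, at 14.79 and 14.6 TPM. The log2 fold change was -0.69 (SE 0.24, limma, adjusted p = 0.023), but the call was lost without replicate 1 or 2 of siControl and without replicate 1 or 2 of siVCPIP1 (-0.65, -0.63, -0.59 and -0.56). MNT was higher after median-of-ratios scaling (0.45) and quantile normalization (0.65) and lower after GC and length correction (-0.35). It lies on chromosome 17 from 2384060 to 2401118 and has 61.4% GC. Without replicate 3 of siVCPIP1 the change was -0.92.

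MGA, a very large protein that carries a T-box besides its dimerization domain and serves as the scaffold of a Polycomb complex, had the lowest level of the network. It was measured at 1.90, 2.15 and 1.68 TPM in siControl and at 0.12, 0.09 and 0.29 TPM in siVCPIP1, without overlap. Its mean in siVCPIP1 was 8.73% of that in siControl, and the log2 change of -1.32 (SE 0.12, limma, adjusted p = 2.2e-05) understates this, since 1 TPM was added before the logarithm. With 0.1 TPM added it was -2.98. GC and length correction gave 0.38 with 1 TPM added and -0.55 with 0.1 TPM added. The transcript is 12042 nt long with 43.1% GC, in 24 exons on chromosome 15 from 41621224 to 41773081.

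MLX, the second hub, had the highest level of the network in siControl, at 67.19, 76.25 and 80.87 TPM, and was measured at 32.6, 31.2 and 46.9 TPM in siVCPIP1. The groups did not overlap and the mean fell to 49.4% of siControl, with a log2 fold change of -1.02 (limma, SE 0.18, adjusted p = 0.00082). That is close to the median of all genes and to the median of its GC bin (-0.93). MLX was lower after quantile normalization (-0.44), while median-of-ratios scaling gave 0.19 and GC and length correction 0.10, neither called. It lies on chromosome 17 from 42567068 to 42573239, has 51.8% GC and shares 925 bases with PSMC3IP on the opposite strand.

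MLXIP, the glucose-sensing partner of MLX, hardly differed in TPM. It was measured at 11.74, 11.95 and 11.41 TPM in siControl and at 9.97, 10.15 and 11.03 TPM in siVCPIP1. The siVCPIP1 values lay just under the siControl values, and the log2 change of -0.16 (SE 0.17, 95% interval -0.54 to 0.22, limma, adjusted p = 0.40) was not called. Against the falling median of all genes it was relatively high, and it was called higher after median-of-ratios scaling (0.97), quantile normalization (1.24) and GC and length correction (0.60). MLXIP lies on chromosome 12 from 122078722 to 122147347, with 57.9% GC in an 8427-nt transcript. Its paralog MLXIPL (ChREBP) stayed under the filter, at 0.48 to 0.75 TPM in siControl and 0.34 to 0.98 TPM in siVCPIP1.

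**Figure D2:**
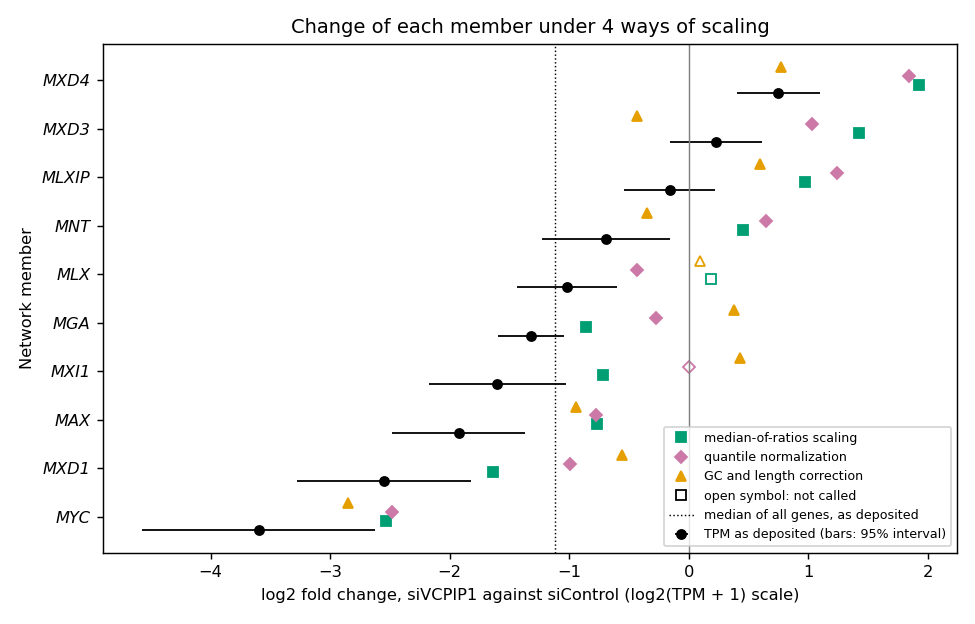
Log2 fold change of each member (siVCPIP1 against siControl, log2(TPM + 1) scale) from TPM as deposited, with 95% intervals, and after 3 other ways of scaling, with open symbols where a rescaled change was not called. MYC, MAX and MXD1 lie below 0 and MXD4 above 0 under all 4, while the other 6 members change sign or lose their call.

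The direction of 4 members, MYC, MAX, MXD1 and MXD4, was the same and called with TPM as deposited, after both scalings and after GC and length correction. With median-of-ratios scaling 5 of the 10 members were lower and 4 higher, beside 45.1% and 40.3% of all genes. After quantile normalization 5 were lower and 4 higher (38.8% and 42.2% of all genes), and after GC and length correction also 5 and 4 (31.8% and 37.2%).

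Changes of the members followed the GC content of their transcripts. Across the 10 members, Pearson's r between GC content and the log2 fold change was 0.66 and Spearman's rho 0.75. Across the 9 members without MYC these were 0.87 and 0.90, but MYC is the member furthest from the median of its GC bin. Over 10915 tested genes with a known GC content r and rho were 0.72 and 0.74. These genes share the same 6 libraries, so the correlations are descriptions. Set against the median of the same GC bin, MYC lay 3.16 lower, MAX 0.99 lower, MNT 0.89 lower and MXD1 0.49 lower. Of the other genes in each bin, 5 of 1090 were as low as MYC and 165 of 1090 as low as MAX. For MNT these were 147 of 1090 and for MXD1 325 of 1091. MLX, MLXIP, MXI1, MXD3 and MXD4 lay within 0.27 of their bin medians, and MGA lay 0.73 higher. With 1 TPM added, MGA, at a siControl mean of 1.91 TPM, cannot fall as far as its bin median of -2.05. Its place above that median was thus fixed in advance. GC and length correction with 0.1 TPM added gave -0.55 for MGA.

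**Figure D3:**
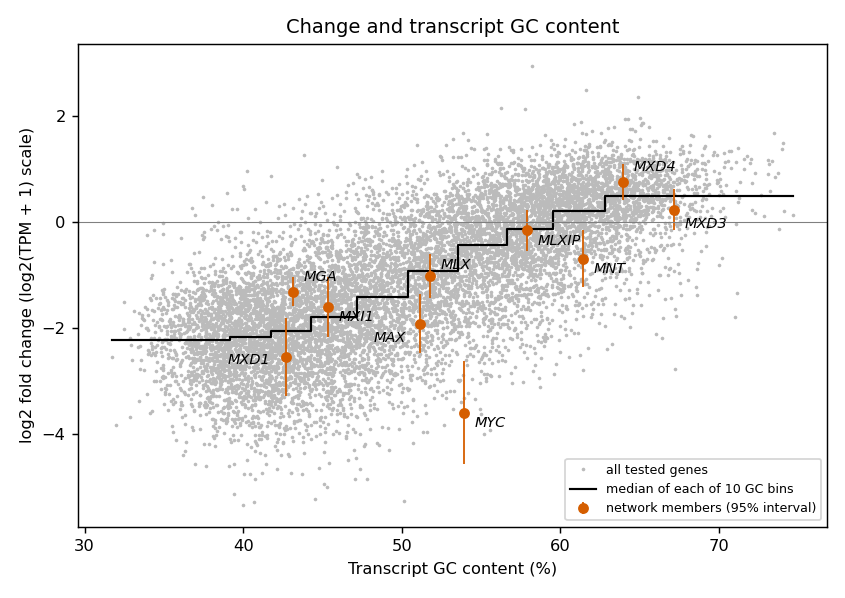
Log2 fold change against transcript GC content for all tested genes (grey), with the median of each of 10 GC bins as a black step and the 10 members in orange with 95% intervals. MYC, at 53.9% GC, lies 3.16 below the step of its bin, and MXD4 and MXD3 sit in the rightmost bin.

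The make-up of the network's transcripts shifted with these changes. The summed TPM of the 10 members was 258.1, 282.4 and 252.5 in siControl and 137.3, 129.0 and 160.4 in siVCPIP1. MYC made up 20.1%, 22.4% and 18.8% of this sum in siControl and 1.59%, 1.496% and 5.60% in siVCPIP1. MXD3 and MXD4 together made up 20.8%, 18.02% and 17.7% in siControl and 53.7%, 53.7% and 37.8% in siVCPIP1. The sum of the 6 antagonists MXD1, MXD3, MXD4, MXI1, MNT and MGA overlapped between the groups, at 94.4, 94.2 and 77.9 TPM in siControl and 84.95, 79.6 and 80.87 TPM in siVCPIP1. It was 1.49 to 1.82 times the MYC level in siControl, and 39.0, 41.2 and 9.01 times in siVCPIP1. These shares and ratios are of transcripts, from TPM as deposited without correction for GC content, and say nothing of protein amounts. MXD3 and MXD4 lie in the GC bin where 55.8% of genes were called higher. After GC and length correction MXD3 was called lower (-0.43).

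In siControl the order of mean levels was MLX, MYC, MAX, MXD3, MNT, MXD4, MXD1, MLXIP, MXI1 and MGA. The ranges of 3 neighbouring pairs overlapped there, MAX with MXD3, MNT with MXD4 and MXD1 with MLXIP. In siVCPIP1 the order was MXD3, MLX, MXD4, MNT, MLXIP, MAX, MYC, MXD1, MXI1 and MGA. There MXD3 and MLX could not be ordered beyond their spread, nor could MNT, MLXIP, MAX, MYC, MXD1 and MXI1, each against its neighbour.

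**Figure D4:**
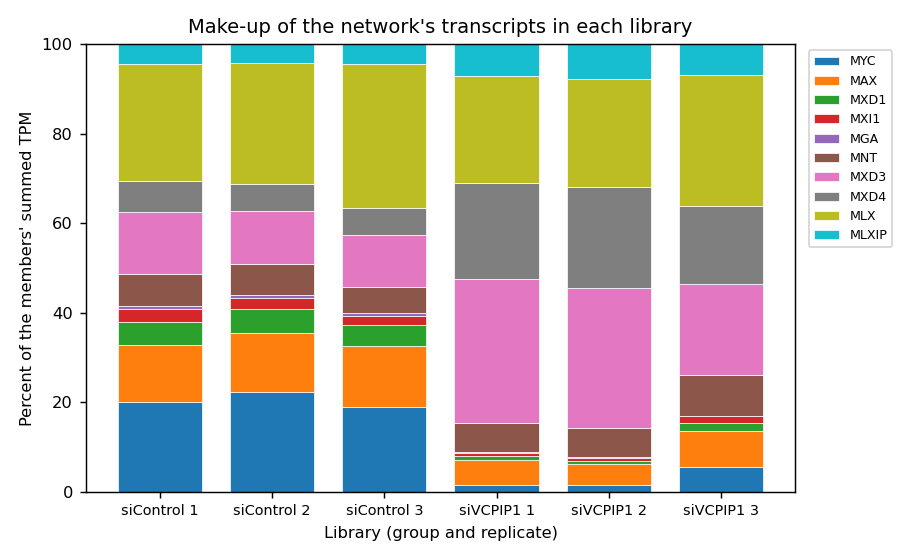
Share of each member in the summed TPM of the 10 members, one stacked bar per library, in percent. MYC takes up 18.8% to 22.4% of the sum in siControl and 1.496% to 5.60% in siVCPIP1, where MXD3 and MXD4 take up 37.8% to 53.7%.

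Of 15 coactivators that act with MYC on chromatin, 10 were lower and 1 higher (2 without replicate 3 of siVCPIP1), with a median of -1.21. These are close to the 66.0% lower, 15.0% higher and median of -1.12 over all genes. The actin-related subunit ACTL6A fell from 49.4 ± 6.82 to 2.63 ± 1.77 TPM (SD, n = 3; log2 fold change -3.89), and the scaffold TRRAP from 36.7 ± 3.15 to 5.18 ± 2.28 TPM (-2.67). The chromatin remodeller BPTF (-2.12) and the acetyltransferase EP300 (-1.92) also fell. They averaged 0.48 and 0.33 TPM in siVCPIP1, so they passed the filter only through siControl. The ATPase RUVBL2 rose from 372.2 ± 41.4 to 538.3 ± 35.3 TPM (0.54). All 5 kept their direction under the 3 rescalings, where the list counted 5 lower and 5 higher (median-of-ratios), 5 and 7 (quantile) and 8 and 6 (GC and length).

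Of 13 genes listed under turnover of the MYC protein, not all of them enzymes, 11 were lower, beside 66.0% of all genes. The median of the list was -1.53, at a median GC content of 45.4%. In the GC bin holding that value 93.4% of tested genes were lower. The mitotic kinase AURKA, which shields MYC proteins from degradation, fell from 185.2 ± 16.05 to 28.0 ± 17.8 TPM (-2.85). CIP2A, an inhibitor of the phosphatase PP2A, (-2.26), the PP2A subunit PPP2R5A (-2.21) and the ligase component FBXO28 (-1.95) also fell. CIP2A and FBXO28 each averaged 0.46 TPM in siVCPIP1 and passed the filter only through siControl. With GC and length corrected for, the list counted 2 lower and 6 higher with a median of 0.22, beside 31.8% and 37.2% of all genes. PPP2R5A then lay at -0.38, CIP2A at 0.02 and FBXO28 at 0.22, none of them called.

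The SIN3 and histone deacetylase corepressor, which MXD proteins and MNT bring to their targets, counted 13 lower and 1 higher of 15, with a median of -2.06, beside 66.0% and 15.0% of all genes. The median GC content of this list was 47.1%, and 93.4% of tested genes in the GC bin holding that value were lower. The deacetylase HDAC2 fell from 55.8 ± 8.45 to 2.93 ± 2.82 TPM (-4.07). The histone chaperones RBBP7 (-3.97) and RBBP4 (-3.38) and the bridging subunit SAP30 (-3.09) also fell. BRMS1 rose from 76.1 ± 10.5 to 132.5 ± 17.1 TPM (0.79). Lower members still outnumbered higher ones under median-of-ratios scaling (12 and 2) and quantile normalization (11 and 2) and with GC and length corrected for (8 and 2, against 31.8% lower and 37.2% higher of all genes).

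Partners of MGA in the Polycomb complex PRC1.6 counted 8 lower and 1 higher of 10, with a median of -2.16, beside 66.0% and 15.0% of all genes. The median GC content of this list was 43.1%, and 97.3% of tested genes in the GC bin holding that value were lower. The heterochromatin proteins CBX1 (-3.60) and CBX3 (-2.89), the E2F partner TFDP1 (-2.77) and YAF2 (-2.52) fell. The ubiquitin ligase RING1 rose from 24.7 ± 1.53 to 37.5 ± 3.14 TPM (0.58). With GC and length corrected for, 3 were lower and 3 higher, with a median of 0.16, beside 31.8% and 37.2% of all genes. CBX3 then lay at -0.44, and YAF2 (-0.18) and RING1 (0.21) were no longer called.

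Factors that act on the MYC gene or its mRNA were listed together with ZBTB17. Of 12 tested in this list, 10 were lower and 2 higher, beside 66.0% and 15.0% of all genes. The median of the list was -2.47, at a median GC content of 45.3%. FUBP1, which binds an element upstream of MYC, fell from 24.8 ± 3.19 to 1.67 ± 1.25 TPM (-3.37). The RNA-binding proteins HNRNPK (-3.33), CNBP (-3.10) and HNRNPD (-2.98) also fell. PUF60, which represses MYC through FUBP1, rose from 280.9 ± 33.1 to 434.2 ± 28.0 TPM (0.63), and ZBTB17 (MIZ-1), through which MYC represses genes, from 19.1 ± 0.50 to 26.8 ± 4.08 TPM (0.45). The ZBTB17 call was lost without replicate 1 (0.46), 2 (0.43) or 3 (0.47) of siControl and without replicate 1 of siVCPIP1 (0.45). With GC and length corrected for, 7 were lower and 2 higher (31.8% and 37.2% of all genes), and all 6 named here kept their direction.

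Known targets of MYC did not move as one group. Of 30 nucleolar and ribosome production targets, 17 fell and 8 rose (5 without replicate 1 of siVCPIP1), with a median of -1.05. Over all genes 66.0% fell and 15.0% rose, with a median of -1.12. The RNA helicases DDX21 (31.3 ± 4.98 to 1.49 ± 1.11 TPM) and DDX18 (18.7 ± 3.33 to 0.587 ± 0.65 TPM) fell (log2 fold changes -3.77 and -3.70), as did the pseudouridine synthase DKC1 (-3.48) and the nucleolar GTPase GNL3 (-3.41). NCL, a classic E-box target that encodes nucleolin, fell from 220.3 ± 22.1 to 52.6 ± 29.9 TPM (-2.18), which was no longer called with GC and length corrected for (-0.48). The promoter window of NCL in the RefSeq table held no CACGTG. DDX21, DDX18, DKC1 and GNL3 remained lower under all 3 rescalings. DDX18, with a mean of 0.587 TPM in siVCPIP1, passed the filter only through siControl. After GC and length correction the list counted 8 lower and 12 higher, with a median of 0.15, beside 31.8% and 37.2% of all genes.

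Of 28 tested metabolic and growth targets, 19 fell and 4 rose, with a median of -0.89, close to the 66.0% and 15.0% of all genes. Prothymosin PTMA fell from 2986 ± 305 to 245.2 ± 219 TPM (-3.95), the purine enzyme PAICS from 165.3 ± 18.4 to 12.8 ± 9.44 TPM (-3.80), and the cap-binding factor EIF4E (-3.75) and the transferrin receptor TFRC (-3.61) fell as well. Those that rose were the spermidine synthase SRM (190.5 ± 13.5 to 397.7 ± 51.6 TPM, 1.05), the kinases NME1 (0.38) and CDK4 (0.51), and the glycolytic enzyme PKM (0.27). The PKM call was lost after quantile normalization (0.17), with limma run without a trend (0.27), without replicate 2 (0.23) or 3 (0.27) of siControl, and without replicate 1 (0.27) or 2 (0.26) of siVCPIP1. ODC1, the first enzyme of polyamine synthesis and a classic E-box target, fell from 145.9 ± 13.9 to 48.5 ± 32.9 TPM (-1.76), which was called neither after median-of-ratios scaling (-0.55) nor with GC and length corrected for (-0.55). The RefSeq table held CACGTG in 1 of 2 promoter windows of ODC1. CAD, which starts pyrimidine synthesis, was not called at 49.5 ± 1.03 and 41.9 ± 7.83 TPM (-0.25), but was called lower without replicate 3 of siVCPIP1 (-0.40) and higher after the 3 rescalings (0.95, 0.42 and 0.50). After GC and length correction the list counted 11 lower and 9 higher, with a median of -0.04, beside 31.8% and 37.2% of all genes.

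Genes that MYC is known to repress counted 8 lower and 2 higher of 13 tested, with a median of -0.88, close to the 66.0% and 15.0% of all genes. The zinc finger factor KLF6 fell from 56.7 ± 13.4 to 3.72 ± 2.96 TPM (-3.76), and the stress gene GADD45A (-3.04), the CDK inhibitor CDKN1B (-2.98) and THBS1 (-2.19) also fell. CDKN1B and THBS1 averaged 0.993 and 0.403 TPM in siVCPIP1, so they passed the filter only through siControl. The chaperone CLU rose from 98.2 ± 3.33 to 137.5 ± 5.42 TPM (0.48) and GADD45B from 78.4 ± 2.80 to 107.8 ± 25.05 TPM (0.43). The GADD45B call was lost with a pseudocount of 0.1, without a filter, with a filter of 5 TPM, with limma run without a trend and without any 1 of the libraries other than replicate 2 of siVCPIP1 (0.25 to 0.45), which left 1 gene of the list higher. After median-of-ratios scaling 5 were lower and 5 higher, beside 45.1% and 40.3% of all genes. Quantile normalization gave 6 lower and 6 higher, beside 38.8% and 42.2%. With GC and length corrected for, 8 were lower and 3 higher, beside 31.8% and 37.2% of all genes.

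Targets of MLX with MLXIP or MLXIPL fell in all 8 tested cases, with a median of -1.54 at a median GC content of 46.8%, beside 66.0% of all genes. PKLR, a pyruvate kinase on the same list, was under the filter but higher without overlap, with 0.583 ± 0.11 TPM in siControl against 1.33 ± 0.24 TPM (SD, n = 3), and 1 gene of the list was called higher when no filter was used. TXNIP, the standard readout of MondoA, was measured at 33.7, 37.8 and 42.0 TPM in siControl and at 16.8, 16.2 and 32.3 TPM in siVCPIP1, and its log2 fold change was -0.84 (limma, SE 0.26, adjusted p = 0.015). The call was lost without replicate 3 of siControl (-0.76) and without replicate 1 (-0.69) or 2 (-0.67) of siVCPIP1. Its direction turned under each rescaling, to 0.35 and 0.08, neither called, and to 1.31, called, after GC and length correction. KLF10 (-2.65), the hexokinase HK2 (-2.27), ARRDC3 (-2.14) and the fatty acid elongase ELOVL6 (-1.85) fell, but ARRDC3 and ELOVL6 lay at 0.14 and 0.17, neither called, after GC and length correction. HK2 and ARRDC3 averaged 0.313 and 0.653 TPM in siVCPIP1, so they passed the filter only through siControl. ARRDC4, the other standard readout, was listed at 0.04 to 0.15 TPM in siControl and at most 0.05 TPM in siVCPIP1. With GC and length corrected for, 2 of the 8 were lower and 1 higher, beside 31.8% and 37.2% of all genes. ELOVL6 was also not called after quantile normalization (-0.22).

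**Figure D5:**
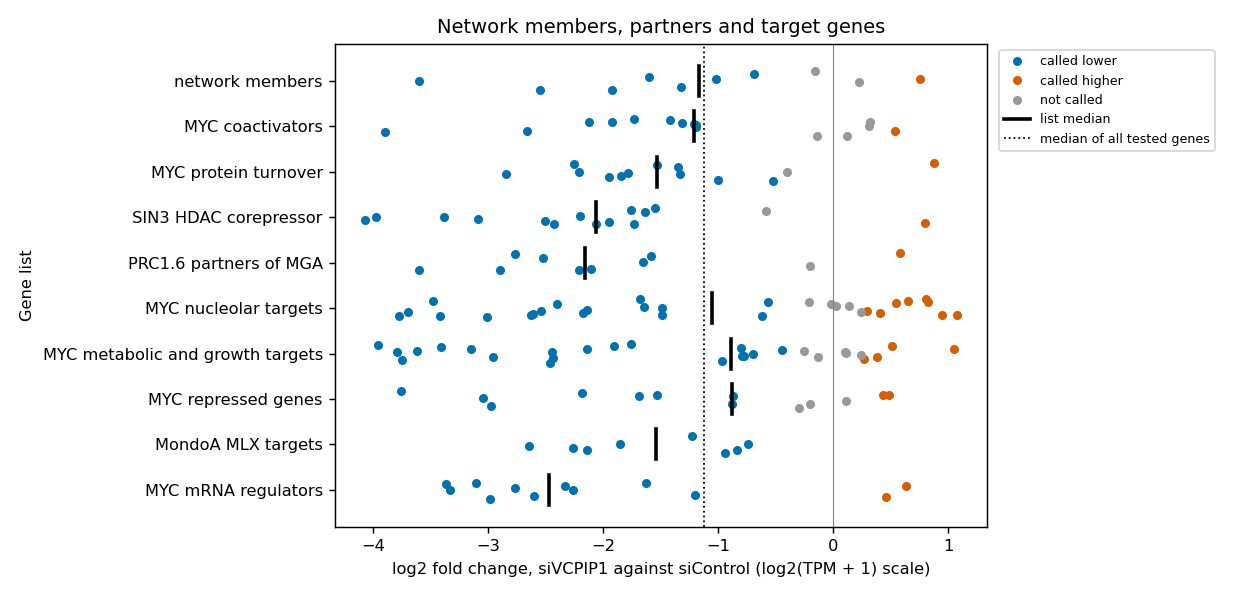
Log2 fold change of each tested gene, by list (points), coloured by its call, with the list median as a black bar and the median of all tested genes (-1.12) as a dotted line. Targets of MYC spread from -3.95 to 1.07 on both sides of the dotted line, while the corepressor list, with a median of -2.06, lies mostly left of it. The medians of the PRC1.6 partners (-2.16) and the MYC mRNA regulators (-2.47) lie further left.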

How the data were processed

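The deposited table holds TPM values of the authors, per the file headers, for 6 libraries and to 2 decimals. The submitters' processing notes name the build GRCh38.p13. Not given in the sources used here: aligner, counting tool, annotation, strand setting. Since TPM carries no read counts, depth is unknown and counting intervals cannot be given. Tests used limma 3.58.1 (R 4.3.3; eBayes, trended, two-sided) on log2(TPM + 1) for the 10966 genes whose mean reached 1 TPM, with Benjamini-Hochberg adjustment over them all and a threshold of 0.05. One protein-coding GENCODE 29 transcript stood for each gene's GC content and length, known for 99.5% of tested genes. The correction subtracted from each library a fitted surface over both properties (splines, 5 by 3 degrees of freedom). Alternatives were another pseudocount, other filters and scalings, eBayes without a trend, a replicate block, and each library left out. In data simulated for siVCPIP1 against siControl over 10966 genes, 100 genes were given a log2 change of 1 and 100 a change of 2. Of these, 38% and 89% were recovered, with 10 false calls. In the real data 81.0% of genes were called, so these rates do not give the sensitivity of the fit used here. The members and lists were chosen with earlier results of these data known. Named genes were VCPIP1, all members, MYCN, MYCL and MLXIPL, the readouts TXNIP, ARRDC4, CAD, ODC1 and NCL, up to 4 called genes of largest change per list, and genes of any list direction with 5 or fewer calls. The genes that overlap members, PKLR and the cell type markers named were chosen after their values were seen. A gene of the list on MYC protein turnover is not reported here.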

Additional observations from a re-analysis of the deposited data

How the results depend on the processing

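Depth is unknown for TPM, so no limit from counting can be given, and the loss of transcripts at low TPM is not measurable. MYC and MAX were lower and MXD4 was higher, each called, in all 16 fits. For all genes, 4679 were lower with a filter of 5 TPM; 4416 were higher after median-of-ratios scaling; 4258 were lower and 4625 higher after quantile normalization; 3470 lower and 4056 higher after GC and length correction, and 3392 and 3916 when that correction was run with a pseudocount of 0.1, an alternative chosen after seeing the data. These rescalings centre the libraries by construction. Members called higher numbered 4 after median-of-ratios scaling, 4 after quantile normalization, 4 after GC and length correction and 3 with a pseudocount of 0.1 as well, where 4 were lower. Leaving out 1 library at a time gave 1 to 2 members higher (2 without siVCPIP1 replicate 3, when MXD3 was called), 6 to 7 lower, and MYC changes of -4.17 to -3.28. The filter of 5 TPM left no value for VCPIP1, MYCN, MGA and MXI1, nor for BPTF, EP300, CIP2A, FBXO28, THBS1, HK2, ARRDC3 and ELOVL6.

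Directions turned as follows, and the cause was not tested. After median-of-ratios scaling MNT lay at 0.45, MLX at 0.19, MLXIP at 0.97, TXNIP at 0.35 and CAD at 0.95. After quantile normalization MNT lay at 0.65, MXI1 at 0.00021, MLXIP at 1.24, TXNIP at 0.079 and CAD at 0.42. After GC and length correction VCPIP1 lay at 0.26, MXD3 at -0.43, MXI1 at 0.43, MLX at 0.10, MLXIP at 0.60, MGA at 0.38, TXNIP at 1.31, CAD at 0.50, CIP2A at 0.018, FBXO28 at 0.22, ARRDC3 at 0.14 and ELOVL6 at 0.17. With the pseudocount of 0.1 as well, MXD3 lay at -0.49, MXI1 at 0.32, MLX at 0.26, MLXIP at 0.80, TXNIP at 1.79, CAD at 0.68, CBX3 at 0.11 and ELOVL6 at 0.47.

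Replicate numbers are shared by the groups, and the deviations of same-numbered libraries from their group means correlated at r = 0.53, -0.27 and 0.16. The deviations of 3 libraries from their own mean are tied to each other. These values therefore cannot decide whether the numbers pair the libraries. With a replicate block 7085 genes were lower and 1586 higher, and MYC kept its change of -3.60 with an adjusted p of 0.00034 (limma).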

Other observations

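The targets of MYC were also set out by whether their promoter holds the E-box, as a description with no test. Of 49 targets of both lists that were tested and had a promoter in the RefSeq table, 24 held CACGTG and 25 did not. Among those with it, 14 were lower and 6 higher, with a median log2 fold change of -1.15, and among those without it 17 were lower and 5 higher, with a median of -0.79. Over all tested genes with a promoter, 66.0% of the 1138 with the E-box and 67.1% of the 7732 without it were lower, and their medians were -1.15 and -1.16. The share of genes with an E-box was 45.8% among the nucleolar targets and 53.8% among the metabolic and growth targets, against 11.8% of the 12487 genes of the expression table that have a promoter in the RefSeq table.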
